A study of Rattus norvegicus with 12 samples.

Results

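The genes described here are 3 pyruvate dehydrogenase kinases (Pdk1, Pdk2 and Pdk4), the pyruvate dehydrogenase phosphatase subunit Pdp1 and the uncoupling proteins Ucp2 and Ucp3, measured in rat left ventricle on Affymetrix Rat Genome 230 2.0 arrays. Every probe set, a group of short probes for 1 transcript, that carries 1 of these 6 symbols alone in the probe annotation was taken, which gave 10 of 31042 probe sets. Pdk1, Pdk2, Pdk4 and Ucp3 had 2 probe sets each, and Pdp1 and Ucp2 had 1. The rats were female Sprague-Dawley animals of 16 months. In the EX group they had lifelong access to voluntary exercise, in the PA group they spent 1 h in a large box on 2 occasions per week, and in the SED group they lived only in a standard cage. Each group had 4 arrays (EX 1 to 4, PA 1 to 4, SED 1 to 4). RNA was pooled, 4 animals to an array according to the series design, whose 12 animals per group would fill 3 arrays rather than the 4 listed. The p-values therefore measure the spread between pooled arrays whose animals are not known to be separate.

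Pyruvate dehydrogenase is the mitochondrial enzyme complex that turns pyruvate from glycolysis and lactate into acetyl-CoA, and so sets how much carbohydrate the heart burns. Pyruvate dehydrogenase kinases phosphorylate the complex and switch it off, while pyruvate dehydrogenase phosphatases remove the phosphate and switch it on. In heart muscle Pdk4 is the isoform known for induction by fasting and fatty acids, through PPAR nuclear receptors, and Ucp3, a carrier of the inner mitochondrial membrane, is a known target of the same receptors. Ucp2 is a related carrier found in many cell types, leukocytes included.

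The arrays were those of heart muscle: 8 cardiomyocyte markers, Myh6, Tnnt2 and Ryr2 among them, had mean log2 levels from 12.41 to 13.15 by their brightest probe sets. Other probe sets of these genes read from 3.68 for Tnnt2 to 12.71 for Pln. The adipocyte genes Adipoq, Plin1, Lep and Cidec lay under the filter on dim probe sets described below, at 3.58 or less. Of 8 skeletal muscle markers, Myh2, Myh4, Tnni2 and Myod1 lay under it too, and those above it were Myh1 at 11.72 to 12.74, Ckm at 12.32, Acta1 at 10.14 and Tnnt3 at 5.35. Of the fat markers, Fabp4 at 11.64, Cidea at 10.35, Cfd at 7.11 and Ucp1 at 5.08 lay above the filter. Array medians lay between 5.64 and 5.72. The interquartile range, a measure of the spread of values on an array, differed by group. It was 3.58 to 3.86 log2 units on the SED arrays and 3.89 to 4.04 on the EX and PA arrays. The part of this in the differences from SED was not tested. SED 1 stood apart: its correlation with the remaining 11 arrays averaged 0.96, while this average was 0.99 for each of those. Its 3' minus 5' difference for the Gapdh control probe sets, a sign of RNA integrity, was 1.56 log2 units and the highest of the 12. SED 3 had the highest leukocyte marker level, 0.73 above the mean over all arrays on the log2 scale for 13 markers, against a range of -0.21 to 0.16 on the other 11. The neutrophil and blood list of 4 markers deviated more, by 1.31 on SED 3 and by -1.12 on SED 1. The part of these markers in the results was not tested, and values without SED 1 stand beside many of them.

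The 18626 probe sets tested were the upper 60% by mean level, and all 10 probe sets of the 6 genes were among them. Differences between group means are given on the log2 scale with the standard error (SE) of limma, a linear model fitted over all probe sets. None of the 10 passed an adjusted limma p of 0.05 in any comparison of groups. Nor did any other probe set (0% of those tested in EX against SED, 0% in PA against SED, 0% in EX against PA and 0% by the F test over the 3 groups). At an unadjusted p under 0.05, 2 of the 10 were called in EX against SED, where 15.6% of all tested probe sets were, 1 in PA against SED (15.2% of all) and 0 in EX against PA (2.87% of all). Over all probe sets these were 2906, 2840 and 534. The members' counts are near this background. In none of the 10 did the arrays of compared groups separate fully, while 7.89%, 8.39% and 2.78% of all probe sets did so in EX against SED, PA against SED and EX against PA. The mean was higher in EX than in SED for 6 of the 10 (59.7% of all probe sets), higher in PA than in SED for 8 (60.9% of all) and higher in EX than in PA for 5 (46.9% of all). With quantile normalization of the arrays the counts of the 10 were again 6, 8 and 5, and the shares of all probe sets were 50%, 50.7% and 48.2%. In bulk tissue, fewer cells of a type and less RNA per cell cannot be told apart.

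**Figure D1:**
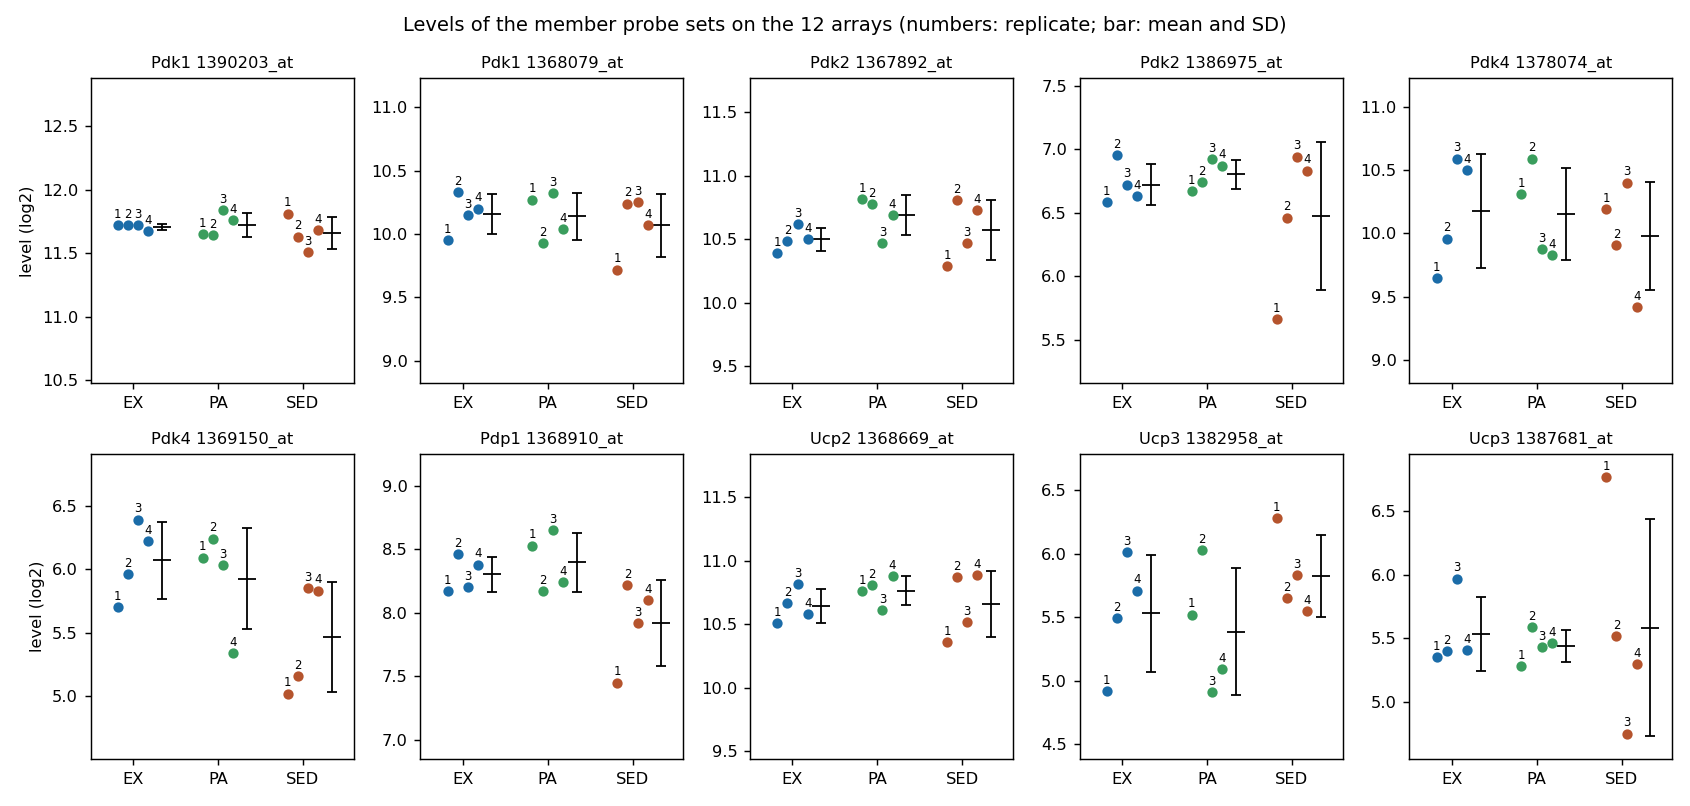
Level (log2) of each of the 10 probe sets on the 4 EX, 4 PA and 4 SED arrays, with the replicate number above each point and a bar for the mean and SD of the group. The groups overlap in every panel, the lowest array is a SED array in 9 of the 10 panels (PA 3 for Ucp3 1382958_at), and SED 1 is the lowest or highest array in 8 panels.

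Pdk1, a kinase that is also a known target of the hypoxia factor HIF-1, had the steadiest probe set of the 10. This probe set, 1390203_at, read 11.72, 11.72, 11.72 and 11.67 in EX, 11.65, 11.64, 11.84 and 11.76 in PA, and 11.81, 11.63, 11.51 and 11.68 in SED. The 12 values lay within 0.33 log2 units, and the residual SD of 0.0915 was lower than that of all but 6.2% of tested probe sets, whose median was 0.2244. The difference was 0.05 ± 0.09 (SE) in EX against SED and 0.07 ± 0.09 in PA against SED, and 0.10 and 0.12 without SED 1. With all arrays the 95% intervals reached from -0.14 to 0.24 and from -0.13 to 0.26, or from 0.907-fold to 1.18-fold and from 0.916-fold to 1.19-fold. Probe set 1368079_at averaged 10.16 ± 0.16 in EX, 10.14 ± 0.19 in PA and 10.07 ± 0.25 in SED (SD, n = 4 each). Its differences were 0.09 ± 0.14 (SE) in EX against SED and 0.07 ± 0.14 in PA against SED, and -0.03 and -0.05 without SED 1. The probe sets of Pdk1 did not move together over the arrays (r = -0.28 over 12 arrays, permutation p = 0.38; rho = -0.14, permutation p = 0.663). SED 1 was the second highest array in 1390203_at, at 11.81, and the lowest in 1368079_at, at 9.72.

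Pdk2, the kinase most broadly expressed among tissues, had no group that stood apart either. Probe set 1367892_at read 10.39, 10.49, 10.62 and 10.50 in EX, 10.82, 10.78, 10.47 and 10.69 in PA, and 10.29, 10.81, 10.47 and 10.73 in SED. EX lay under PA by 0.19 on the log2 scale (difference -0.19 ± 0.13 (SE), interval -0.47 to 0.09, limma, adjusted p = 1). The SED arrays alone covered nearly the whole range of the 12. Against SED the difference was -0.08 ± 0.13 (SE) in EX and 0.12 ± 0.13 in PA, and -0.17 and 0.02 without SED 1. Probe set 1386975_at averaged 6.72 ± 0.16 in EX, 6.80 ± 0.12 in PA and 6.47 ± 0.58 in SED (SD, n = 4 each). The SED mean rests on SED 1, which read 5.66 against 6.46 to 6.94 on the other SED arrays. Without it the difference was -0.02 in EX against SED and 0.06 in PA against SED, against 0.25 and 0.33 with all arrays.

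Pdk4 had wide scatter within each group. Its probe set 1378074_at read 9.65, 9.96, 10.59 and 10.50 in EX, 10.31, 10.59, 9.88 and 9.83 in PA, and 10.19, 9.91, 10.40 and 9.42 in SED. High and low arrays occurred in each group, and the highest value was 2.25-fold the lowest. The residual SD of 0.4127 exceeded that of 87% of tested probe sets. Differences were 0.20 ± 0.26 (SE) in EX against SED, 0.17 ± 0.26 in PA against SED and 0.02 ± 0.26 in EX against PA. Without SED 1 the first 2 were 0.27 and 0.24. With all arrays, in EX against SED the interval ran from 0.769-fold to 1.7-fold, so differences up to these sizes in either direction lie within the error of 4 arrays a group.

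Probe set 1369150_at of Pdk4 had the largest difference of the 10. It read 5.70, 5.96, 6.39 and 6.22 in EX, 6.09, 6.24, 6.03 and 5.34 in PA, and 5.02, 5.16, 5.85 and 5.83 in SED. Of the EX arrays 3 lay above every SED array, as did 3 of the PA arrays. EX against SED differed by 0.60 ± 0.25 (SE), or 1.52-fold (95% interval 1.05-fold to 2.2-fold, limma, adjusted p = 0.267), and PA against SED by 0.46 ± 0.25 (limma, adjusted p = 0.389). Without SED 1, the lowest array, these were 0.45 (limma, adjusted p = 0.451) and 0.31 (limma, adjusted p = 0.654). This probe set is dim, with a mean of 5.82, and with 32 added on the linear scale the differences were 0.37 and 0.28. Over the 12 arrays the probe sets of Pdk4 had r = 0.47 (permutation p = 0.124) and rho = 0.68 (permutation p = 0.0188, adjusted 0.212 over 45 pairs). Within the EX arrays both gave the same order, EX 1 lowest and EX 3 highest.

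Pdp1, the catalytic subunit of a calcium-stimulated phosphatase that reactivates pyruvate dehydrogenase, had a lower mean in SED than in both activity groups. It read 8.17, 8.46, 8.20 and 8.38 in EX, 8.53, 8.17, 8.65 and 8.24 in PA, and 7.45, 8.22, 7.92 and 8.10 in SED. SED 2 alone of the SED arrays reached into the range of the others. PA exceeded SED by 0.48 ± 0.17 (SE), or 1.39-fold (interval 1.08-fold to 1.79-fold, limma, adjusted p = 0.246), and EX exceeded SED by 0.38 ± 0.17, or 1.3-fold (1.01-fold to 1.68-fold, limma, adjusted p = 0.304). Both comparisons share the SED arrays. Without SED 1 the differences were 0.32 in PA against SED (limma, adjusted p = 0.377) and 0.22 in EX against SED (limma, adjusted p = 0.509). EX and PA differed by -0.10 ± 0.17 (SE). After quantile normalization of all arrays, Pdp1 differed by 0.36 in PA against SED and 0.27 in EX against SED.

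Ucp2 had overlapping levels in the 3 groups, reading 10.51, 10.67, 10.82 and 10.58 in EX, 10.76, 10.81, 10.61 and 10.88 in PA, and 10.36, 10.87, 10.52 and 10.89 in SED. The difference was -0.02 ± 0.13 (SE) in EX against SED, with an interval from 0.812-fold to 1.21-fold, and 0.11 ± 0.13 in PA against SED, with an interval from 0.882-fold to 1.31-fold. Without SED 1, the lowest array, the differences were -0.12 and 0.005. Leukocyte markers had a lower mean in EX than in SED for 12 of 13 and in PA than in SED for 8 of 13, with medians of -0.23 and -0.18. Without SED 1 these were 13 and 11, with medians of -0.42 and -0.30. Of all tested probe sets, 59.7% had the higher mean in EX than in SED and 60.9% in PA than in SED. The mean deviation of the 13 markers was 0.73 on SED 3, but -0.21, 0.05 and 0.01 on SED 1, SED 2 and SED 4. It ran from -0.17 to -0.05 on the EX arrays and from -0.13 to 0.16 on the PA arrays. The lower means thus rest largely on SED 3, and marker counts without it were not made. On SED 3, the array highest in them, Ucp2 was the third lowest, and the part of leukocytes in its level was not tested.

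Ucp3 was the member with the widest spread. Both of its probe sets were dim, with means of 5.58 and 5.52, and each read under the filter at 4.94 on some array. Probe set 1382958_at read 4.92, 5.49, 6.01 and 5.71 in EX, 5.52, 6.03, 4.91 and 5.09 in PA, and 6.28, 5.65, 5.83 and 5.55 in SED. Of the PA arrays 3 lay under every SED array, and PA 2 was above all but SED 1. The difference was -0.44 ± 0.28 (SE) in PA against SED (interval 0.486-fold to 1.12-fold, limma, adjusted p = 0.454) and -0.30 ± 0.28 in EX against SED (0.537-fold to 1.24-fold, limma, adjusted p = 0.632). Without SED 1 they were -0.29 and -0.14. Probe set 1387681_at averaged 5.53 ± 0.29 in EX, 5.44 ± 0.13 in PA and 5.59 ± 0.85 in SED (SD, n = 4 each). Its SED arrays held both the highest value of the 12, 6.77 in SED 1, and the lowest, 4.75 in SED 3. Its differences were -0.05 in EX against SED and -0.15 in PA against SED, and 0.34 and 0.25 without SED 1, so no direction can be given. Over the 12 arrays the probe sets of Ucp3 had r = 0.49 (permutation p = 0.105), or 0.15 without SED 1.

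**Figure D2:**
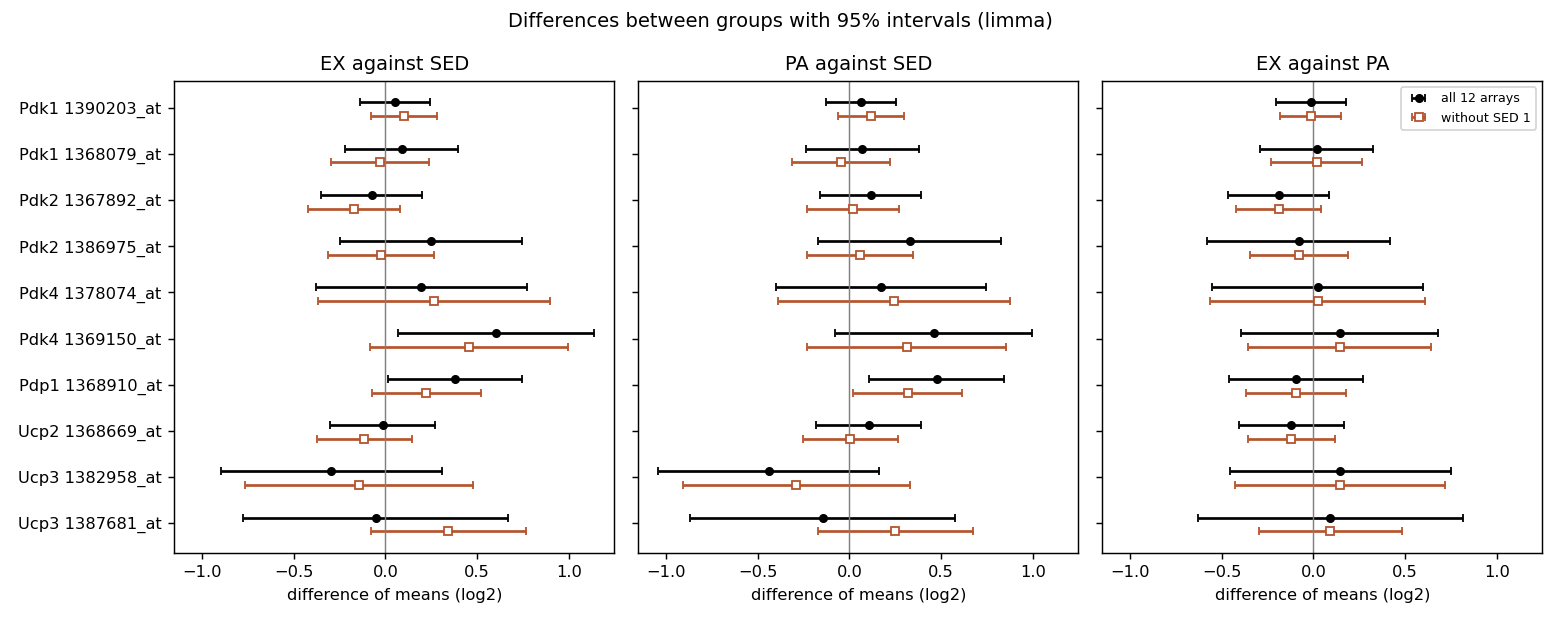
Difference between group means (log2, horizontal axis) with its 95% limma interval for each probe set and comparison, from all 12 arrays (filled circles) and without SED 1 (open squares). The intervals of Pdp1 in EX against SED and PA against SED, and of Pdk4 1369150_at in EX against SED, lie above 0 with all arrays; without SED 1 that holds for Pdp1 in PA against SED alone.

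Over the arrays some probe sets of different members followed each other. Deviations from group means were used here, so that differences between groups do not enter. All 45 pairs of probe sets were compared, and the 3 pairs of different genes with the smallest p are described. Pdk2 1367892_at and Ucp2 had r = 0.91 and rho = 0.88 for the deviations (exact permutation within groups of r, p = 0.00318, adjusted 0.0629). Pdk1 1368079_at and Pdp1 had r = 0.89 and rho = 0.80 (exact permutation p = 0.0042, adjusted 0.0629). Pdk4 1378074_at and Ucp3 1382958_at had r = 0.85 and rho = 0.87 (exact permutation p = 0.00188, adjusted 0.0629). Of the 45 pairs, 0 passed after adjustment with all arrays, and without SED 1 the r of the 3 pairs was 0.84, 0.79 and 0.86, with an adjusted exact permutation p of 0.254, 0.254 and 0.026. Other probe sets of these genes had a lower within-group r. It was 0.47 for Pdk2 1386975_at with Ucp2 and -0.23 for Pdk1 1390203_at with Pdp1. For Pdk4 with Ucp3 it was 0.34 (1369150_at with 1382958_at), 0.19 (1378074_at with 1387681_at) and -0.40 (1369150_at with 1387681_at). Over the raw levels of the 12 arrays, for the probe sets of the 3 pairs, Pdk2 and Ucp2 had r = 0.90 (permutation p = 0.00011, adjusted 0.00495; rho = 0.79, permutation p = 0.00289, adjusted 0.13), and r = 0.92 without SED 1 and PA 1, the arrays farthest from the median of Pdk2. Pdk1 and Pdp1 had r = 0.77 (permutation p = 0.00444, adjusted 0.0999; rho = 0.69, permutation p = 0.0161, adjusted 0.212), and r = 0.51 without SED 1 and PA 2. Pdk4 and Ucp3 had r = 0.65 (permutation p = 0.0233, adjusted 0.18; rho = 0.71, permutation p = 0.0125, adjusted 0.212), and r = 0.74 without SED 4 and EX 3.

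The Pdk4 and Ucp3 pair can be followed array by array. In EX both were lowest in EX 1 and highest in EX 3, and in PA both were highest in PA 2 and low in PA 3 and PA 4. In SED both had their lowest value in SED 4, but SED 1 was highest for Ucp3 and SED 3 for Pdk4. Ucp2 and Pdk2 shared their lowest array in each group (EX 1, PA 3 and SED 1) and their highest array in EX (EX 3). EX 1 was the lowest EX array for every member probe set but Pdk1 1390203_at, so its place is not particular to these pairs. Its 3' minus 5' difference for the Gapdh control probe sets, 1.35 log2 units, was the second highest of the 12 arrays. Genes measured on 1 array share its RNA pool, so these values describe how the arrays differ and not how the genes act on each other.

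**Figure D3:**
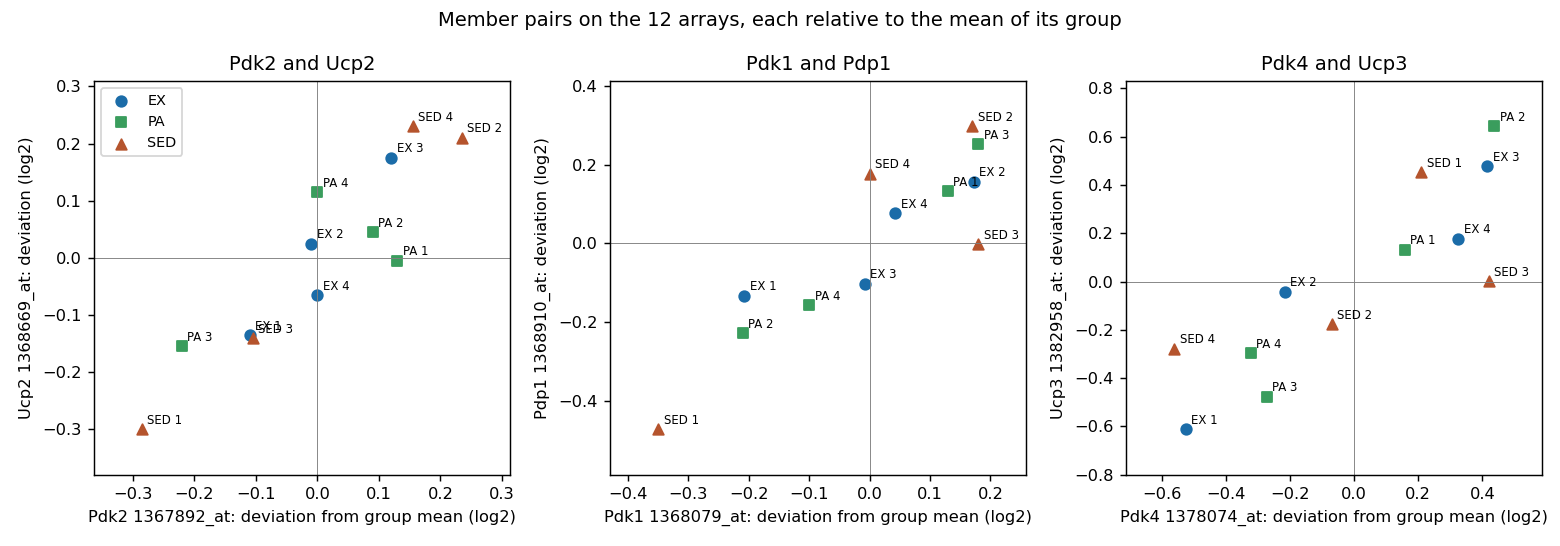
Deviation of each array from the mean of its group (log2) for Pdk2 1367892_at against Ucp2, Pdk1 1368079_at against Pdp1, and Pdk4 1378074_at against Ucp3 1382958_at, with EX as circles, PA as squares and SED as triangles. The points run from lower left to upper right in each panel (r = 0.91, 0.89 and 0.85), with SED 1 at the lower left end of the first 2.

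The promoters of Pdk4, Ucp3, Pdk2 and Ucp2 are shown because these genes form 2 of the pairs. The sequences are RefSeq's on GRCr8, 250 bases before to 50 bases after the gene start, 5' to 3' on the strand of the gene, and 5 of the 6 members matched an entry. Capitals mark every match, on either strand, to 1 of 6 motifs: the nuclear receptor half-site TGACCT, the E-box CACGTG, the GC box GGGCGG, the CCAAT box CCAAT, the TATA box TATAAA and the forkhead site TGTTTAC. No marked match overlaps another.
Pdk4 promoter (chr4:34568280-34568579, minus strand): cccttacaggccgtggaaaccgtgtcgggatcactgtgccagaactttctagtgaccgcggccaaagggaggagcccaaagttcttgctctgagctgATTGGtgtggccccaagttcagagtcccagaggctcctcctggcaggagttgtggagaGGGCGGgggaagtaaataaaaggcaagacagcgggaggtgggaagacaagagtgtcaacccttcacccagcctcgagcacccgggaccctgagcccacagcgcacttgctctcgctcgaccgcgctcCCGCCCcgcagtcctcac
Ucp3 promoter (chr1:164227660-164227959, plus strand): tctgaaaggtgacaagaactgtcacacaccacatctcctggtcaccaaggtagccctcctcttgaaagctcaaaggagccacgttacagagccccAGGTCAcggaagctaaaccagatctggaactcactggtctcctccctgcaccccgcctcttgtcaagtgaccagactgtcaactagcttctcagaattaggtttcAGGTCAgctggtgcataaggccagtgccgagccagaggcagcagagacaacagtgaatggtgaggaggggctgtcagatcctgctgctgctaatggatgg
Pdk2 promoter (chr10:80483863-80484162, minus strand): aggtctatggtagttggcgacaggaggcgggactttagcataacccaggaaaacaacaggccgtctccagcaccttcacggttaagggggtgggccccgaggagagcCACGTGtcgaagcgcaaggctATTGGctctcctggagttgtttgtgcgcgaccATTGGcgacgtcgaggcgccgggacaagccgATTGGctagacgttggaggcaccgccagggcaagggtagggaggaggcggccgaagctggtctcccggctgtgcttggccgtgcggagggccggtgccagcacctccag
Ucp2 promoter (chr1:164251123-164251422, plus strand): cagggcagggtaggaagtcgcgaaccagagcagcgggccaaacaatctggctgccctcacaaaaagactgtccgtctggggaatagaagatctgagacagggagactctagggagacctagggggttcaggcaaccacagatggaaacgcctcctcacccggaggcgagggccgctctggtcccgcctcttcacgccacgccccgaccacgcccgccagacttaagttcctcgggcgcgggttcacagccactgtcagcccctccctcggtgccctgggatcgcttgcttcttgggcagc

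Ucp3 held 2 matches to the nuclear receptor half-site, starting at positions -155 and -50 relative to the gene start and both on the opposite strand, so that AGGTCA is read here, where 16.2% of 33469 promoters of the same length held at least 1. Pdk4 held no half-site in this window. It held 2 GC boxes, at -95 and 33 (33.1% of all promoters), and a CCAAT box at -153 (37.5%). Pdk2 held 3 CCAAT boxes, at -122, -90 and -59, and an E-box at -143 (6.42%), while Ucp2 held none of the 6 motifs. The TATA box (14.2%) and the forkhead site (3.78%) were in none of the 4. No motif was found in both promoters of a pair. GC content was 61.3% for Pdk4, 54% for Ucp3, 64% for Pdk2 and 63.3% for Ucp2, against a median of 51.7%. Ucp3 and Ucp2 are neighbours on chromosome 1, with no protein-coding gene between them. Over the arrays r between Ucp3 1382958_at and Ucp2 was -0.11, or 0.27 without SED 1.

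The genes whose levels were most like those of each member over the 12 arrays were found among 10243 other genes, by Pearson correlation with the probe set of highest mean. For Pdk4 they were Dmp1 (r = 0.81), Exo5 (0.81) and Trim27 (0.81), and Ucp3 ranked 49 with 0.65. For Ucp3 they were Phyhip (0.88), Agpat2 (0.86) and Zfp94 (0.85), and Pdk4 ranked 107. Pdk2 was followed most closely by Smtn (0.96), Coq8a (0.95) and C7h8orf82 (0.95), with Ucp2 at rank 17, and Ucp2 by Copz1 (0.93), Smtn (0.93) and Ptprb (0.93), with Pdk2 at rank 10. Pdp1 was followed by Isca2 (0.97), Nup88 (0.94) and Ndufb10 (0.94), and Pdk1 1390203_at by Lancl2 (0.90), St13 (0.88) and Tmem204 (0.88). Without SED 1, Isca2 (0.92), Dmp1 (0.94), Copz1 (0.95) and Lancl2 (0.90) stayed first for their members, Lrpprc (0.95) came first for Pdk2, and Chrnb1 (0.88) for Ucp3. Ucp2 then ranked 53 for Pdk2 and Pdk2 16 for Ucp2, while Ucp3 ranked 70 for Pdk4 and Pdk4 37 for Ucp3.

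The other regulators of the complex give context for Pdp1. Pdpr, the regulatory subunit of the phosphatase, read 7.02, 7.37, 7.26 and 6.89 in EX, 6.89, 6.74, 6.86 and 7.0 in PA, and 5.65, 6.31, 6.75 and 6.65 in SED. Every EX array lay above every SED array, with a difference of 0.80 ± 0.21 (SE, limma, adjusted p = 0.138), and PA exceeded SED by 0.53 ± 0.21 (limma, adjusted p = 0.271). Without SED 1 these were 0.57 and 0.30. Pdp2, the second phosphatase catalytic subunit, differed by 0.24 ± 0.11 (SE) in EX against SED and 0.38 ± 0.11 in PA against SED with probe set 1380045_at (limma, adjusted p = 0.327 and 0.204). Without SED 1 these were 0.18 and 0.32. With probe set 1370509_at they were 0.28 and 0.19, or 0.19 and 0.10 without SED 1. All 3 phosphatase genes had higher means in EX and in PA than in SED, and none passed the test. Of all tested probe sets, 59.7% were higher in EX and 60.9% in PA than in SED. Of the list of other kinases and phosphatases, 4 of 5 genes were tested, with 3 higher and 1 lower in EX than in SED and likewise in PA than in SED. The medians were 0.24 and 0.31, or 0.12 and 0.19 without SED 1. Of the 4 genes, 1 and 2 had an unadjusted limma p under 0.05, as did 15.6% and 15.2% of all tested probe sets. The remaining kinase Pdk3 was too dim to be tested, at 4.79 ± 0.14 in EX, 4.74 ± 0.14 in PA and 5.01 ± 0.31 in SED with probe set 1384315_at (log2, SD, n = 4 each). Bckdk, the kinase of the branched-chain alpha-ketoacid dehydrogenase, differed by -0.16 ± 0.10 (SE) in EX against SED, and its phosphatase Ppm1k by 0.24 ± 0.18 (0.06 without SED 1).

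The pyruvate dehydrogenase complex and the enzymes that supply it had 7 of 8 tested genes with a higher mean in EX than in SED and 8 of 8 in PA than in SED, with medians of 0.09 and 0.16 against 0.06 and 0.06 over all probe sets. None passed the test, and none had an unadjusted p under 0.05. Mpc1, a subunit of the mitochondrial pyruvate carrier, differed by 0.24 ± 0.13 (SE) in EX against SED and 0.24 ± 0.13 in PA against SED, and the lactate dehydrogenase gene Ldha by 0.26 ± 0.15 in PA against SED. Without SED 1 these were 0.09, 0.09 and 0.10. For the list, leaving out SED 1 gave 3 genes higher and 5 lower in EX, with a median of -0.01, and 7 higher and 1 lower in PA, with a median of 0.08. In EX against PA 1 was higher and 7 lower, with a median of -0.07 against -0.01 over all probe sets. Pdhx and Pdhb, a structural and a catalytic subunit, differed there by -0.17 ± 0.15 and -0.16 ± 0.15 (SE).

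Genes of fatty acid use that respond to PPAR receptors had 11 of 21 tested members with a higher mean in EX than in SED and 16 of 21 in PA than in SED, with medians of 0.04 and 0.09. Without SED 1 these were 11 and 17, with medians of 0.0075 and 0.10. In EX against PA, 20 of the 21 had the lower mean in EX, with a median of -0.08, while 46.9% of all probe sets had the higher mean in EX. This lean was not particular to the list. The pyruvate dehydrogenase list had 7 of 8 lower in EX than in PA, and other mitochondrial carriers had 10 of 12. Genes of a list are read on the same arrays, so they are not independent. None of the 21 passed the test, and 1 in each comparison had an unadjusted limma p under 0.05. Of all tested probe sets, 15.6% did so in EX against SED, 15.2% in PA against SED and 2.87% in EX against PA. Ehhadh, a peroxisomal beta-oxidation enzyme, averaged 6.10 ± 0.26 in EX and 6.54 ± 0.24 in PA (SD, n = 4 each), a difference of -0.44 ± 0.15 (SE, limma, adjusted p = 1). Mlycd, which degrades malonyl-CoA, differed by -0.16 ± 0.10 and Acadvl, the very long chain acyl-CoA dehydrogenase, by -0.14 ± 0.10 in EX against PA. In PA against SED, the acyl-CoA synthetase gene Acsl1 differed by 0.20 ± 0.09 (SE, limma, adjusted p = 0.321) and the beta-oxidation genes Decr1 and Hadha by 0.19 ± 0.09 and 0.15 ± 0.07. Plin5, whose protein coats lipid droplets, differed by -0.25 ± 0.10 in EX against SED (limma, adjusted p = 0.266). The differences of Pdk4 and Ucp3, known targets of the same receptors, were 0.02 and 0.14 for the probe sets of Pdk4 and 0.15 and 0.09 for those of Ucp3 in EX against PA. Each had an interval that includes 0, and each changed sign with some single array left out, so no direction can be given.

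Among 16 tested regulators of Pdk4 and Ucp3 transcription, 12 had a higher mean in EX than in SED and 14 in PA than in SED, each by its probe set of highest mean, with medians of 0.15 and 0.16. Of all tested probe sets, 59.7% and 60.9% had the higher mean in EX and in PA than in SED, with medians of 0.055 and 0.0625. None of the regulators' probe sets passed or had an unadjusted p under 0.05 in either comparison, while 15.6% and 15.2% of all tested probe sets had such a p. Without SED 1 the medians of the regulators were 0.07 and 0.13. Ppara, a PPAR receptor active in heart, had a dim probe set. It averaged 5.55 ± 0.23 in EX, 5.55 ± 0.08 in PA and 5.29 ± 0.36 in SED (SD, n = 4 each). Esrrg, an estrogen-related receptor, did not overlap between EX and SED or between PA and SED, as 7.89% and 8.39% of all tested probe sets did not. Its differences were 0.16 ± 0.08 and 0.17 ± 0.08 (SE, limma, adjusted p = 0.367 and 0.347), or 0.12 and 0.13 without SED 1. The glucocorticoid receptor gene Nr3c1 differed by 0.26 ± 0.14 in EX against SED and 0.29 ± 0.14 in PA against SED, or 0.11 and 0.14 without SED 1. Pparg, the PPAR receptor of fat cells, had a dim probe set, at 5.785 in EX and 5.385 in SED. It differed by 0.40 ± 0.22 in EX against SED, or 0.30 without SED 1. The insulin receptor substrate gene Irs1 differed by 0.29 ± 0.14 in PA against SED. In EX against PA the forkhead factor Foxo3 differed by -0.25 ± 0.10 (SE, limma, adjusted p = 1), the coactivator gene Ppargc1b by 0.36 ± 0.18 and Hif1a by -0.18 ± 0.13. The 3 probe sets of Ppargc1a, which encodes the coactivator PGC-1 alpha, gave unlike values. In SED they averaged 5.96 (1370089_at), 10.58 (1393743_at) and 9.99 (1395518_at), so the first was much dimmer. Probe set 1370089_at differed by 0.73 ± 0.15 in EX against SED and 0.76 ± 0.15 in PA against SED (limma, adjusted p = 0.134 and 0.164). Those groups did not overlap, as in 7.89% and 8.39% of all tested probe sets, and the unadjusted limma p was under 0.05 in both. Without SED 1 the differences of this probe set were 0.64 and 0.67. Probe set 1393743_at differed by 0.12 ± 0.12 and 0.22 ± 0.12 (-0.01 and 0.09 without SED 1), and 1395518_at by 0.30 ± 0.22 and 0.32 ± 0.22 (0.04 and 0.06 without SED 1).

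Other mitochondrial carriers had 4 of 12 tested members with a higher mean in EX than in SED and 8 of 12 in PA than in SED, with medians of -0.03 and 0.05. Without SED 1 these were 3 and 7, with medians of -0.04 and 0.01. In EX against PA 2 were higher and 10 lower, with a median of -0.085. None passed, and 1 and 2 had an unadjusted limma p under 0.05, as did 15.6% and 15.2% of all tested probe sets. Ucp1, the uncoupling protein of brown fat, stood near the filter at 4.94 ± 0.22 in EX, 5.03 ± 0.11 in PA and 5.28 ± 0.23 in SED (SD, n = 4 each). It differed by -0.34 ± 0.14 (SE) in EX against SED (limma, adjusted p = 0.266). Slc25a30, a carrier of the uncoupling protein family, differed by 0.25 ± 0.10 in PA against SED and Slc25a10, the dicarboxylate carrier, by -0.30 ± 0.13 (limma, adjusted p = 0.289 and 0.31). Slc25a27, another uncoupling protein relative, differed by -0.51 ± 0.27 in EX against PA.

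**Figure D4:**
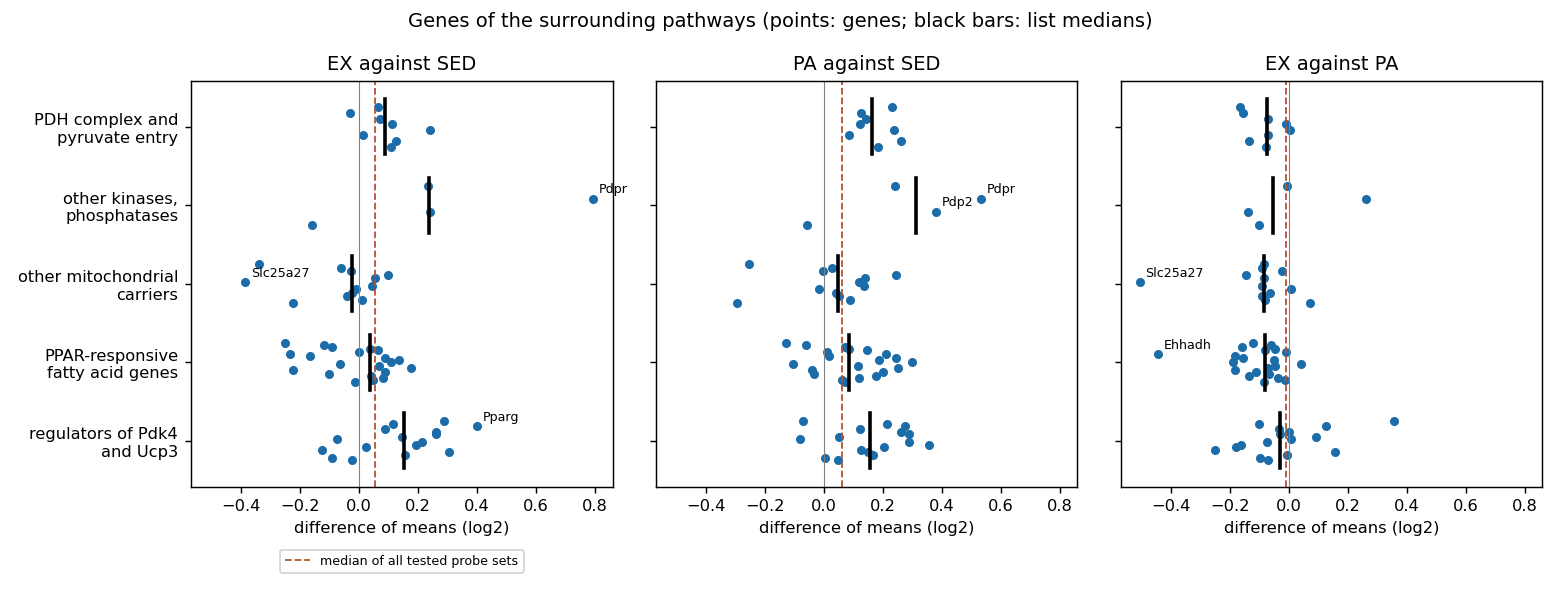
Difference between group means (log2, horizontal axis) for the tested genes of 5 lists around pyruvate dehydrogenase and the uncoupling proteins, in EX against SED, PA against SED and EX against PA; black bars are list medians and the dashed line is the median of all tested probe sets. Pdpr lies farthest to the right in EX against SED (0.80). In EX against PA, 20 of 21 PPAR-responsive genes lie left of 0, as do 7 of 8 of the pyruvate dehydrogenase list and 10 of 12 carriers.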

How the data were processed

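RNA of rat left ventricle was measured on 12 arrays, from 6 µg of total RNA per array, per the labels' protocols. The authors deposited log2 values for 31099 rows. Both MAS5 and RMA appear in the submitters' processing notes, with no word on which made the values, so the scale and background correction are not settled. Arrays carry no read depth, and the number of arrays limits precision. The values were used as deposited, since array medians differed by less than 0.2. After 57 control rows were left out, the upper 60% by mean over all arrays, 18626 of 31042 probe sets at or above 4.94, were tested, and all 10 member probe sets passed. Symbols came from the platform annotation (20826 probe sets with 1 symbol, 436 with several, 9780 with none listed), updated through gene identifiers for 20758, while 68 kept theirs.

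Limma 3.58.1 in R 4.3.3 fitted the mean of each of the 3 groups to all 12 arrays (residual degrees of freedom 9), with two-sided moderated tests and Benjamini-Hochberg adjustment over all tested probe sets. Correlations used 100000 permutations of arrays, or all 13824 rearrangements within groups. The limma fit was tested on simulated data, with noise independent between probe sets. Named genes are all member probe sets, up to 3 genes of each list with the smallest p per comparison, and Ppargc1a, Ppara and Pdk3; a gene is given by its tested probe set of highest mean. The members and lists were chosen with earlier results of these data known. Marker lists covered cardiomyocytes, skeletal muscle, leukocytes, blood and adipocytes. The replicate numbers of the titles did not pair the arrays. The alternatives are in the closing section; those for the F test and the correlations were chosen after seeing the data. Figures used matplotlib 3.10.9.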

Additional observations from a re-analysis of the deposited data

Results flagged for a closer look

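Chance alone would put about 1 in 20 groups of 4 past Dixon's limit of 0.829 for the gap of the end array over the range of its group, and 2 of the 30 groups examined lay past it. In Pdk1 1390203_at, EX 4 read 11.67 while the other 3 EX arrays all read 11.72, a gap of 0.05 log2 units that stands out only because the others were equal. In Ucp3 1387681_at, EX 3 read 5.97 against 5.35 to 5.41 on the other EX arrays. EX 3 was also the highest EX array for the other Ucp3 probe set, at 6.01, and for both probe sets of Pdk4.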

How the results depend on the processing

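Of the 30 member differences (10 probe sets in 3 comparisons), 0 passed the threshold under any alternative, with 0.177 as the lowest adjusted limma p. The alternatives were quantile normalization, subtraction of array medians, adding 32 before taking log2, no filter and a stricter filter. Further ones were a trended robust variance model, fits with the compared groups alone, array weights and the replicate block. Together they gave 261 values, of which 256 kept their direction. The filter settings, the variance model, the fits with the compared groups alone and the replicate block leave a difference of means unchanged. Their values are among the 261 and could not change direction. Only quantile normalization, subtraction of array medians, the added 32 and array weights could turn a sign. With 32 added, Pdk4 1369150_at differed by 0.37 in EX against SED and 0.28 in PA against SED, and the dim Ucp3 1382958_at by -0.17 and -0.26. The stricter filter, the upper 40%, left 7 member probe sets and dropped both of Ucp3 and Pdk4 1369150_at. Array weights turned the sign of Pdk1 1368079_at in EX against SED (-0.0102) and PA against SED (-0.0349), of Ucp2 in PA against SED (-0.0029), and of Ucp3 1387681_at in EX against SED (0.26) and PA against SED (0.094). The cause was not tested. After quantile normalization 50% of all probe sets had the higher mean in EX than in SED and 50.7% in PA than in SED, without a filter 45.6% and 44.8%, and with the stricter filter 66.3% and 68.2%.

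With 1 array left out, 336 of 360 values kept their direction and 24 changed it. The 360 include values without an array of the group not compared, which could not change. Values that crossed 0 ran, in EX against SED, from -0.029 to 0.16 for Pdk1 1368079_at, -0.17 to 0.0033 for Pdk2 1367892_at, -0.023 to 0.40 for Pdk2 1386975_at, -0.12 to 0.062 for Ucp2 and -0.33 to 0.34 for Ucp3 1387681_at. In PA against SED they ran from -0.047 to 0.14 for Pdk1 1368079_at, -0.014 to 0.31 for Pdk4 1378074_at and -0.42 to 0.25 for Ucp3 1387681_at. In EX against PA they ran from -0.0425 to 0.024 for Pdk1 1390203_at, -0.0525 to 0.087 for Pdk1 1368079_at, -0.12 to 0.20 for Pdk4 1378074_at, -0.0525 to 0.27 for Pdk4 1369150_at, -0.014 to 0.36 for Ucp3 1382958_at and -0.053 to 0.15 for Ucp3 1387681_at. Pdp1 stayed between 0.22 and 0.48 in EX against SED and between 0.32 and 0.57 in PA against SED, and Pdk4 1369150_at between 0.45 and 0.73 and between 0.31 and 0.66.

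Over all probe sets, the count past the threshold in EX against SED was 4 at an adjusted p of 0.1, 8 with array weights and 0 to 2 with 1 array left out (1 without EX 2, 2 without SED 1). With array weights it was 1 in PA against SED, 1 in EX against PA and 6 by the F test, which gave 0 to 2 with 1 array left out (1 without EX 2, 2 without SED 1). The replicate block gave 0 calls in each comparison, as without it. Same-numbered arrays of different groups had deviations correlated from -0.21 to 0.13, over 0.1 in 4 of 12 pairs, so the numbers were not taken as pairs. The within-group r of the 3 member pairs stayed between 0.79 and 0.91 under quantile normalization, subtraction of array medians, the offset and without SED 1.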
